A study of Mus musculus with 12 samples.

Results

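The 7 genes described here encode the Fos and Jun subunits of the transcription factor AP-1: the Fos genes Fos, Fosb, Fosl1, and Fosl2 and the Jun genes Jun, Junb, and Jund. They were chosen by family membership and matched to the files by symbol and Ensembl identifier, and each was present among the 54331 genes of the normalized count table and the 54119 genes summed from transcripts. RNA came from cerebral vessels that were isolated from the forebrain of wild type C57BL6 mice aged 2 to 3 months by homogenization, dextran, and a mesh. The mice received PBS or lipopolysaccharide (LPS, a component of the outer membrane of Gram-negative bacteria) at 10 mg/kg into the peritoneum, and the LPS groups were killed after 15 min, 30 min, or 4 h. Each of the 4 groups had 3 libraries, and each library pooled the vessels of 1 male and 1 female mouse, so a group drew on 6 mice and the sexes cannot be told apart. No time of killing is given for the PBS mice in the sources used here. The comparisons address how soon and for how long these genes respond in the vessels to inflammation outside the brain.

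AP-1 is a dimer of basic leucine zipper proteins that binds the sequence TGANTCA and its relatives in promoters and enhancers. Jun proteins pair with themselves or with Fos proteins, whereas Fos proteins need a partner such as Jun. Fos, Fosb, Jun, and Junb are textbook immediate early genes: signals through MAP kinases, SRF with its ternary complex partners, and CREB start their transcription without new protein synthesis. Fosl1 (Fra-1) and Fosl2 (Fra-2) are Fos-related antigens that are commonly induced later, and Jund is the subunit that resting cells commonly express.

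In GRCm38, Jun lies at chr4:95049034-95052222 (minus strand), Fosl2 at chr5:32135801-32157842 (plus), Fosb at chr7:19302696-19310051 (minus), Jund at chr8:70698949-70700616 (plus), Junb at chr8:84974484-84978718 (minus), Fos at chr12:85473890-85477273 (plus), and Fosl1 at chr19:5447547-5455946 (plus). Jun, Junb, and Jund have a coding transcript without introns. RefSeq promoter windows of 250 bases before the start were matched for 6 of the 7 genes, all but Fosl1. They were searched on both strands for TGACG (part of the CRE bound by CREB and ATF proteins), TGACATCA (an AP-1 site variant known from the Jun promoter), TGANTCA, the CArG box, TATAAA, and CCAAT. Stretches of 150 bases (GRCm38.p6, 5′ to 3′) are shown for the 4 immediate early genes because they hold every match that was found, in capitals. They end just before the RefSeq start, except that of Fosb. It ends just before the GENCODE start, 6 bases short of the RefSeq start. Distances below are counted from the RefSeq start.
Fos, chr12:85473740-85473889, plus strand: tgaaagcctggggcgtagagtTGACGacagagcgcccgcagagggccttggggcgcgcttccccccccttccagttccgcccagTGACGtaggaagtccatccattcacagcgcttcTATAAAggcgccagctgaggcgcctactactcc
Fosb, chr7:19310052-19310201, minus strand: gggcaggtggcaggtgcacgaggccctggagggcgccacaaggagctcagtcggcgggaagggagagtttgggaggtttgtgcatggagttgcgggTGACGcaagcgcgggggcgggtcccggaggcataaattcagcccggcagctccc
Jun, chr4:95052223-95052372, minus strand: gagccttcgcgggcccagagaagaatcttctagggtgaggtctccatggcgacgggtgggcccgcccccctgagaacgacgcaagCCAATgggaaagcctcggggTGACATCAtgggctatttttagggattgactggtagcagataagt
Junb, chr8:84978749-84978898, minus strand: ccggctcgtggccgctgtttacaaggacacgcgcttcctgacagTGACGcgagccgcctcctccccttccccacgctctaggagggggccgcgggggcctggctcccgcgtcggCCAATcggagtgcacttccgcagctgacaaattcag
TGACG stood 129 and 66 bases before the start of Fos, 60 before that of Fosb, and 106 before that of Junb, thus in 3 of the 6 windows, and it occurs in 17.8% of the 32851 RefSeq windows of this length. TGACATCA stood 45 bases before the start of Jun and occurs in 2.93% of all windows. TATAAA stood 33 bases before the start of Fos (12.4% of all windows), and CCAAT 65 bases before that of Jun and 36 before that of Junb (33.9% of all windows). TGANTCA (6.75% of all windows) and the CArG box (1.47%) had no match in the 6 windows. Sequence more than 250 bases before the start was not searched, so a site farther upstream would have been missed. The windows of Fosl2 and Jund held no match and are not shown, since their RefSeq starts lie 671 and 1210 bases from the start in GENCODE. These matches describe letters and were not tested for binding.

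Libraries held 18.3 to 25.9 M estimated fragments. All 12 pairs of libraries within a group differed by more than sampling noise (chi-square per degree of freedom of 2.56 to 7.14), so none was treated as another library sequenced again. This check cannot tell pools of different mice from repeat preparations of the same pool. The spread within groups was small (common biological coefficient of variation 0.0524 in edgeR), so p-values measure the spread between these pools. Whether the pools of a group were prepared together is not given in the sources used here. An effect of preparation thus cannot be told apart from one of time after LPS, and the p-values do not cover it. Markers of the tissue were present in every group. The summed CPM (counts scaled to library size and edgeR's TMM factors) of 8 endothelial markers ranged from 9254 to 9548 in PBS. It was 10281 to 10338 at 30 min and 6097 to 6158 at 4 h. Markers of other cells differed between groups: 6 neuronal markers summed to 317 to 329 CPM in PBS and 490 to 502 at 15 min, 4 skeletal muscle markers to 8.13 to 12.5 in PBS and 110 to 118 at 30 min, 6 astrocyte markers to 376 to 406 in PBS and 951 to 1001 at 4 h, and 6 neutrophil markers to 2.25 to 2.71 in PBS and 183 to 190 at 4 h, with Ly6g at 0 in PBS and LPS 15 min. In the other direction, 4 smooth muscle markers summed to 2346 to 2382 CPM in PBS and 1488 to 1508 at 15 min, and 6 microglia markers to 103 to 110 in PBS and 64.5 to 69.3 at 4 h. Not every marker followed its sum in the edgeR test described below. At 15 min 2 of 6 neuronal markers were called higher and 3 of 4 smooth muscle markers lower. Of all genes tested, 3.31% were called higher and 0.872% lower at that time. At 4 h 3 of 6 astrocyte markers were called higher and 3 of 6 microglia markers lower, against 19% and 13.8% of all genes tested. Of 8 endothelial markers 6 were called lower at 4 h and 1, Cdh5, higher. At both 15 min and 30 min Slc2a1 was called higher and Cldn5 and Kdr lower. The part of these cells in the AP-1 values was not tested, and in these bulk samples fewer cells of a type and less RNA per cell cannot be told apart.

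All 7 genes rose after LPS, at different times. Genes were called changed when the edgeR quasi-likelihood test placed them beyond a change of 1.5-fold at a Benjamini-Hochberg adjusted p (p.adj) below 0.05 over the 19150 genes tested. At LPS 15 min 6 of the 7 were higher than in PBS, against 3.31% of all genes tested. At LPS 30 min it was 7 of 7, against 3.78%, and at 4 h 7 of 7, against 19%. The median log2 fold change of the 7 genes was 2.65, 3.97, and 3.94 at the successive times, while that of all genes tested was within 0.02 of 0 each time. Lower calls took 0.872%, 0.799%, and 13.8% of all genes tested at these times and no member. Without a test, all libraries of 6 members at 15 min and of all 7 at the later times lay above every PBS library, as they did for 25.2%, 23.7%, and 35.9% of all genes tested. The 3 comparisons share the PBS libraries. Among the 3 LPS times, levels were highest at 30 min for Fos, Fosb, Jun, Junb, and Jund, and at 4 h for Fosl1 and Fosl2. No library came from between 30 min and 4 h or from after 4 h, so the times of the true peaks are not known. Values at 4 h depended on the scaling. With library size alone in place of TMM factors, the median of all genes tested at 4 h against PBS moved to -0.71 on the log2 scale, and the log2 fold change was 3.24 for Fos, 2.19 for Fosb, 1.04 for Jun, 3.41 for Junb, and 3.37 for Fosl2, each still called, and 0.21 for Jund, which was not called.

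**Figure D1:**
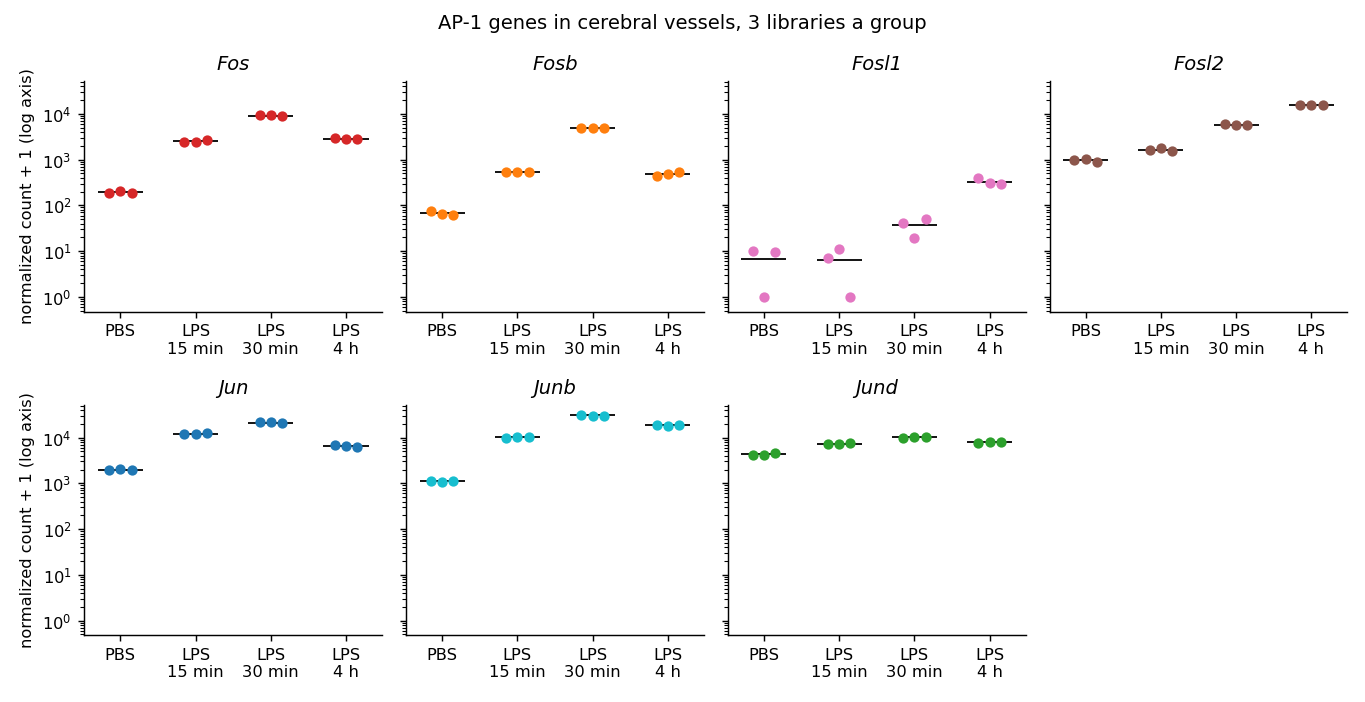
Normalized counts plus 1 (log axis) of the 7 AP-1 genes in each library of the PBS group and of the 3 LPS times, 1 point per library and a black line at the group mean. Only Fosl1 has libraries at 0, and Fosl1 and Fosl2 are the genes that are highest at 4 h.

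Fos, the prototype of the family, had normalized counts of 189, 201.4, and 182 in the PBS libraries, 2479, 2411, and 2683 at 15 min, 9468, 9362, and 8756 at 30 min, and 2917, 2851, and 2834 at 4 h. The groups did not overlap: LPS 30 min was highest, then LPS 4 h, LPS 15 min, and PBS. The order of LPS 4 h and LPS 15 min turned without size factors: in TPM (abundance scaled for transcript length) Fos had 93.0 to 103 at 15 min and 58.7 to 61.6 at 4 h. The rise over PBS was 13.1-fold at 15 min, 49.5-fold at 30 min, and 15.4-fold at 4 h (log2 5.63 ± 0.0489 SE at 30 min, edgeR p.adj = 4.55e-28). Of all genes tested, 29 had a larger log2 fold change at 30 min and 440 at 4 h.

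Fosb, which encodes FosB and its shorter form ΔFosB, was among the genes that were highest at 30 min. Of these it had the largest rise from 15 min to 30 min and the largest fall from 30 min to 4 h. Normalized counts were 74.9, 65.1, and 60.9 in PBS, 524, 542, and 524 at 15 min, 4820, 4951, and 4942 at 30 min, and 440, 494, and 524 at 4 h. LPS 30 min stood apart from every other group, LPS 15 min and LPS 4 h overlapped, and PBS was lowest. Fosb was 8.29-fold over PBS at 15 min, 69.5-fold at 30 min (log2 6.12 ± 0.0775 SE, edgeR p.adj = 6.89e-25), and 7.44-fold at 4 h. At 15 min Fos (13.1-fold) and Junb (9.23-fold) were further above PBS.

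Jun, the archetypal Jun subunit, had 1942, 2094, and 1925 normalized counts in PBS and 12207, 12106, and 12359 at 15 min. It reached 21312, 21661, and 20667 at 30 min and was back to 6702, 6472, and 6363 at 4 h, still above every PBS library. In normalized counts Jun was the only member whose LPS 15 min libraries all lay above those of LPS 4 h, whereas in TPM this also held for Fos, Fosb (11.2 to 11.6 against 5.17 to 6.06), and Jund. The fold over PBS was 6.27 at 15 min (log2 2.65 ± 0.0324 SE, edgeR p.adj = 9.37e-24), 10.9 at 30 min, and 3.35 at 4 h.

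Junb, a Jun subunit that binds DNA less strongly than Jun and can restrain it, had 1127, 1055, and 1138 normalized counts in PBS, 9767, 10058, and 10365 at 15 min, and 30730, 30180, and 30179 at 30 min. At LPS 4 h it held 19204, 18169, and 19176. Junb was below Jun in the normalized counts of PBS and LPS 15 min and above it at 30 min and 4 h. In TPM, which compares genes per length, Junb and Jun overlapped in PBS and Junb was higher at every LPS time. Its fold over PBS was 9.23, 28.3, and 17.4 at the 3 times (log2 4.12 ± 0.0377 SE at 4 h, edgeR p.adj = 4.23e-28).

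Jund, the subunit of resting cells, changed least. It had 4187, 4219, and 4503 normalized counts in PBS, 7264, 7184, and 7493 at 15 min, 9956, 10527, and 10179 at 30 min, and 7733, 7924, and 7957 at 4 h. The 4 groups did not overlap, in the same order as for Fos, and here too the order turned in TPM, with 366 to 380 at 15 min and 216 to 218 at 4 h. Jund rose 1.71-fold at 15 min (log2 0.77 ± 0.0298 SE, edgeR p.adj = 1.15e-05), 2.45-fold at 30 min, and 1.88-fold at 4 h (log2 0.91). The last call was lost with library size alone, as given above. For scale, the 3 reference genes of the paper's PCR, Actb, Gapdh, and Rplp0, were also called higher at 4 h (log2 0.66 to 1.43). Of these Actb was called at 30 min too (1.18).

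Fosl2, which encodes Fra-2, rose at each step of the series. It had 979, 1036, and 905 normalized counts in PBS, 1634, 1773, and 1556 at 15 min, 5889, 5665, and 5825 at 30 min, and 15939, 15964, and 15714 at 4 h. No library of a later time fell within the range of an earlier one. Fosl2 was 1.73-fold over PBS at 15 min (log2 0.79 ± 0.0427 SE, edgeR p.adj = 0.000326), 6.03-fold at 30 min, and 16.8-fold at 4 h (log2 4.07 ± 0.0406 SE, edgeR p.adj = 2.07e-27). The call at 15 min was not made by limma on the normalized counts (p.adj = 0.0874 with a pseudocount of 1 and 0.105 with 10).

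Fosl1, which encodes Fra-1, was near 0 until 30 min. Salmon assigned it 4, 0, and 5 fragments in PBS, 4, 5, and 0 at 15 min, 58, 35, and 30 at 30 min, and 349, 321, and 310 at 4 h. Normalized counts, which the authors also divided by average transcript length, were 9.16, 0, and 8.46 in PBS, 5.93, 10.3, and 0 at 15 min, 41.0, 18.0, and 48.2 at 30 min, and 395, 310, and 289 at 4 h. PBS and LPS 15 min overlapped, and every library of LPS 30 min and LPS 4 h lay above them. The log2 fold change at 15 min was 0.05 with a 95% interval of -1.66 to 1.76, so a change in either direction was not detectable at this depth. At LPS 30 min it was 3.97 (95% interval 2.96 to 4.98, edgeR p.adj = 8.91e-06), and at 4 h 7.65 (6.85 to 8.45, edgeR p.adj = 6.47e-14). The call at 30 min was lost with a transcript length offset (2.98, p.adj = 0.0588) and with limma (p.adj = 0.304 and 0.225 with pseudocounts of 1 and 10). PBS replicate 2, the library at 0, raised these values: without it the log2 fold change was 3.35 at 30 min and 7.035 at 4 h, and both were called. At 4 h the other settings gave 4.47 (limma with a pseudocount of 10) to 7.72, and the call held in each. Fosl1 overlaps Ccdc85b on the other strand, and the kit does not mark strand. Ccdc85b had 53.7 to 58.4 TPM in PBS and 13.7 to 14.7 at 4 h, and its part in the Fosl1 values was not tested.

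**Figure D2:**
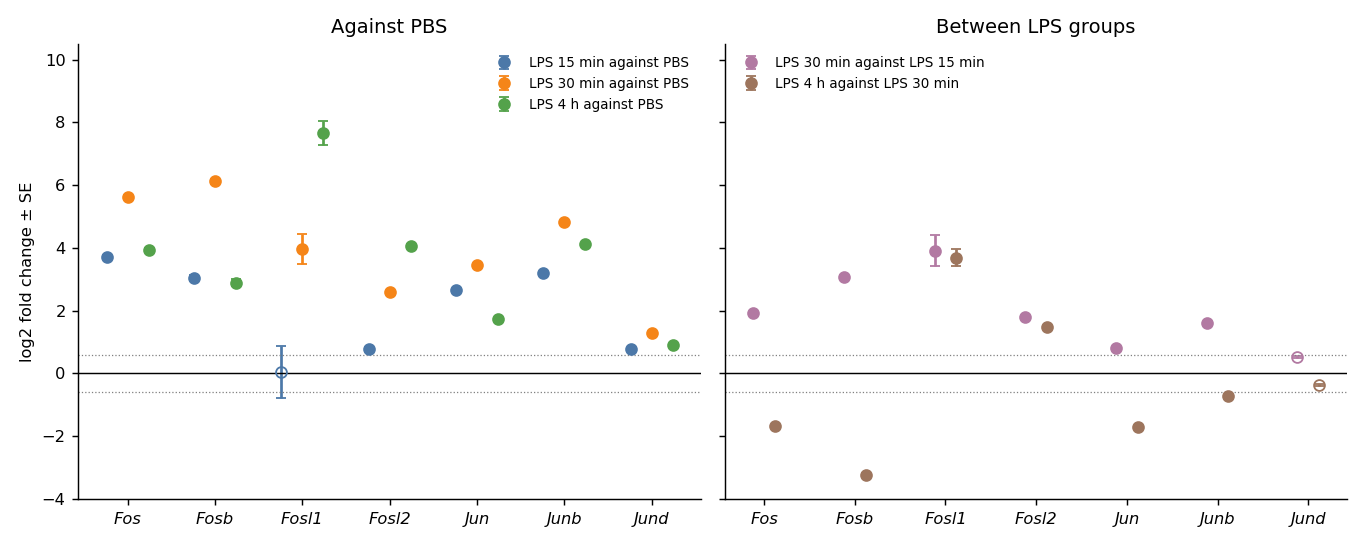
Log2 fold change (± SE) of each AP-1 gene for each LPS time against PBS (left) and between LPS groups (right), from the edgeR fit over 12 libraries; filled points were called, open points were not, and dotted lines mark 1.5-fold. Fosl1 and Fosl2 lie above 0 from LPS 30 min to LPS 4 h, while Fos, Fosb, Jun, and Junb lie below.

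The steps between LPS times set the family apart by course. From LPS 15 min to LPS 30 min 6 of 7 genes were higher, against 2.69% of all genes tested. Fosl1 rose by 3.92, Fosb by 3.07, Fos by 1.92, Fosl2 by 1.80, Junb by 1.62, and Jun by 0.80 on the log2 scale. The Fosl1 call in this step was lost with a length offset (2.996, p.adj = 0.0570) and with limma (p.adj = 0.268 and 0.197), and without LPS 15 min replicate 2 the log2 value was 4.55. Jund differed by 0.52 (95% interval 0.46 to 0.58), an interval that lies below the 1.5-fold line, and was not called. From LPS 30 min to LPS 4 h, 2 of 7 were higher, against 16.9% of all genes tested, and 4 of 7 were lower, against 11.8%. Fosb was 9.34-fold lower, Jun 3.27-fold, Fos 3.22-fold, and Junb 1.63-fold (log2 -0.70 ± 0.0313 SE, edgeR p.adj = 0.000425). In the same step Fosl1 was 12.9-fold and Fosl2 2.79-fold higher. Jund differed by -0.38 (95% interval -0.44 to -0.32) and was not called, although with library size alone it was (-0.92), when the median of all genes tested moved to -0.58. Tested in edgeR against no change in place of 1.5-fold, both Jund steps passed (p.adj = 1.57e-12 and 1e-10).

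To compare the genes with each other, levels were taken per length, as TPM. In PBS Jund was the most abundant at 218 ± 7.11 TPM (SD, n = 3), followed by Junb at 50.6 ± 1.99 and Jun at 47.1 ± 2.32, whose libraries overlapped. Fosl2 came next at 10.8 ± 0.788, then Fos at 7.31 ± 0.414, Fosb at 1.43 ± 0.161, and Fosl1 at 0.457 ± 0.397. At LPS 15 min Junb led at 464 ± 10.2 TPM, ahead of Jund (373 ± 6.87) and Jun (293 ± 2.90), and Fos at 97.5 ± 5.04 had passed Fosl2 at 18.5 ± 1.27. Fosb and Fosl1 were the lowest, at 11.4 and 0.427 TPM. At LPS 30 min Junb reached 1141 ± 19.0 TPM, while Jund (425 ± 11.9) and Jun (414 ± 12.4) overlapped. Fos stood at 289 ± 14.2, Fosb at 85.9 ± 0.972, Fosl2 at 52.8 ± 1.14, and Fosl1 at 2.33 ± 1.02. At LPS 4 h the order was Junb (468 ± 19.4), Jund (216 ± 1.38), Fosl2 (95.8 ± 1.59), Jun (84.0 ± 3.20), Fos (59.7 ± 1.63), Fosl1 (14.3 ± 2.60), and Fosb (5.64 ± 0.446), with no overlap between neighbours. TPM carries no TMM factor, and these factors averaged lowest at 4 h (0.715 to 0.718, against 1.16 to 1.17 in PBS). Jund thus had 218 TPM in PBS and 216 at 4 h, while its TMM-scaled fold was 1.88.

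The summed TPM of the 7 genes was 335 in PBS, 1258 at 15 min, 2410 at 30 min, and 944 at 4 h. The Jun genes held most of it, 94.0 ± 0.402% in PBS, 89.8 ± 0.10% at 15 min, 82.1 ± 0.260% at 30 min, and 81.4 ± 0.372% at 4 h. The share differed between the 4 groups (exact permutation test over the 369600 assignments of libraries to groups, p = 6.49e-05, the smallest this design can give). Weighted by estimated fragments in place of TPM, the share at 15 min (86.3%) was not below that in PBS (85.7%), and that at 4 h was 62.5%. Within the sum, Jund held 64.9% in PBS, 29.7% at 15 min, 17.6% at 30 min, and 22.9% at 4 h. Junb held 15.1, 36.9, 47.3, and 49.6% in the same order. Jun held 14.1, 23.3, 17.2, and 8.90%, so its share was largest at 15 min and smallest at 4 h. By estimated fragments Jund held 49.9, 21.1, 12.6, and 14.9%, Junb 35.3% at 4 h, and Fosl2 11.3% in PBS and 30.2% at 4 h, where TPM gave it 10.1%. By TPM, Junb transcripts were 0.232 times as abundant as Jund in PBS, 2.69 times at 30 min, and 2.16 times at 4 h.

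**Figure D3:**
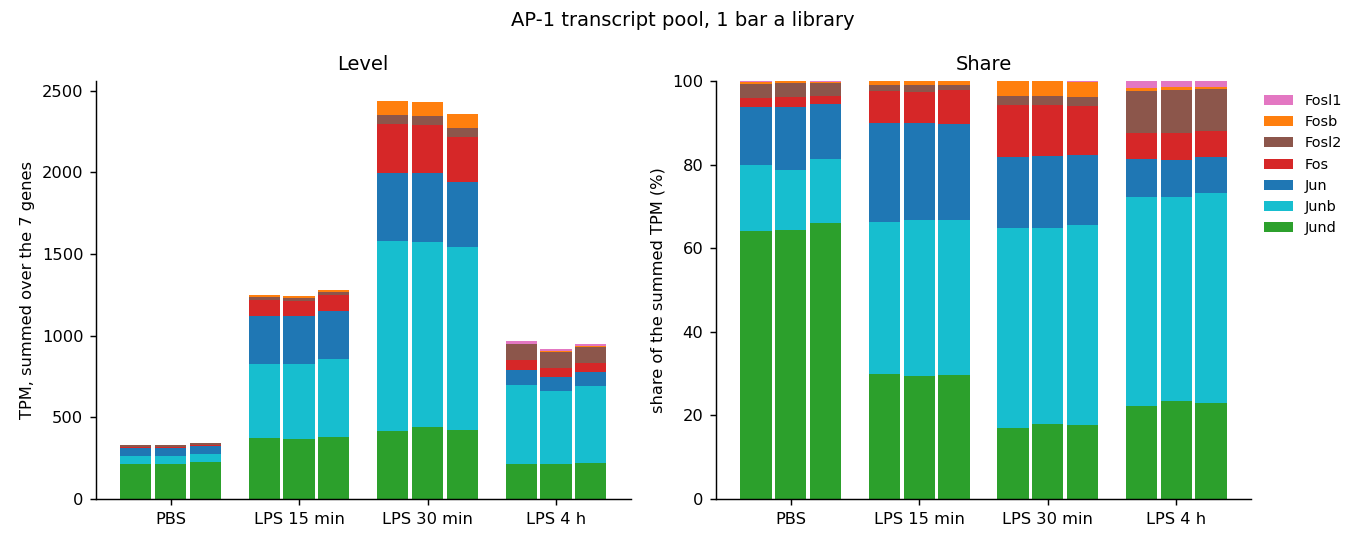
Summed TPM of the 7 AP-1 genes (left) and the share of each gene in that sum (right), 1 bar per library, 3 per group. Jund fills 64.9% of the sum in PBS and Junb 47.3% at 30 min, and Fosl2 is a visible share, 10.1%, at 4 h.

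Among the Fos genes alone, Fosl2 held 53.99 ± 1.57% of the TPM in PBS, 14.5 ± 1.33% at 15 min, 12.3 ± 0.400% at 30 min, and 54.6 ± 0.775% at 4 h. Fos held 36.6, 76.2, 67.2, and 34.0%. The share of Fosb was 7.13, 8.92, 20.0, and 3.22%, and that of Fosl1 2.32, 0.339, 0.545, and 8.14%. The Fos genes of PBS and of LPS 4 h thus had a like ratio of Fos to Fosl2 (0.677, range 0.666 to 0.694, against 0.623, range 0.616 to 0.631) at levels that differed, and the ratio was 5.29 and 5.48 at 15 min and 30 min. The ratio of Fosl2 to Jun was 0.229 in PBS, 0.0633 at 15 min, 0.128 at 30 min, and 1.14 at 4 h.

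Transcript forms were read from the Salmon estimates over the 21 annotated transcripts of these genes. Fos-201, the full-length coding form, held 96.2 ± 2.77% of Fos TPM in PBS, 92.1 ± 2.12% at 15 min, 97.8 ± 0.502% at 30 min, and 96.6 ± 1.84% at 4 h. The test of a difference between groups did not pass after adjustment over the 4 genes tested (exact permutation p = 0.0456, adjusted 0.182). The main form of Fosl2 held 97.2 to 99.0% in the group means (exact permutation p = 0.184, adjusted 0.369), and that of Junb at least 99.98% (exact permutation p = 1, adjusted 1). For Fosb-201 it was 58.9 ± 51.7% in PBS, where 1 library was listed at 0 for this form, 67.5 ± 1.74% at 15 min, 59.5 ± 1.69% at 30 min, and 78.1 ± 8.27% at 4 h (exact permutation p = 0.880, adjusted 1). That PBS library, replicate 2, decided the outcome for both genes: without it the adjusted exact permutation p was 0.0499 for Fos and 0.0281 for Fosb. Fosl1 was not tested because a PBS library was at 0.

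ΔFosB lacks the carboxy-terminal end of FosB because 140 bases of the last exon (chr7:19305007-19305146) are spliced out, which shifts the reading frame. Of the annotated coding transcripts, Fosb-206 (237 codons) and Fosb-207 lack these bases, while the full-length Fosb-201 has 338 codons. Their share of coding Fosb TPM was 18.4, 20.4, and 0% in the PBS libraries, 20.7, 22.2, and 11.3% at 15 min, 31.7, 37.4, and 34.9% at 30 min, and 27.1, 9.68, and 21.3% at 4 h. All LPS 30 min libraries lay above all others, which overlapped among themselves. These 3 libraries also held most of the fragments behind the estimate, 983 to 1222 on the shorter forms, against 0 to 106 in the other 9 libraries. At 30 min Fosb-207 had 775 to 1024 fragments and Fosb-206 174 to 216, while their TPM was 14.5 ± 2.11 and 13.0 ± 1.57. The share thus joins forms of different coding length. By estimated fragments in place of TPM the shares were lower, 24.1 ± 2.69% at 30 min and 15.2 ± 4.06% at 15 min. No test was made of this share. Fosb-204, an unspliced form of the annotation that retains an intron, held 3.40 ± 1.34% of all Fosb TPM in PBS, 13.7 ± 2.08% at 15 min, 7.52 ± 0.146% at 30 min, and 3.05 ± 1.18% at 4 h. The share of Fosb-204 was largest at 15 min, where every library (12.2 to 16.1%) lay above those of the other groups, although its level was higher at 30 min (6.46 TPM against 1.56). This share was looked at after the values were seen and was not tested.

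**Figure D4:**
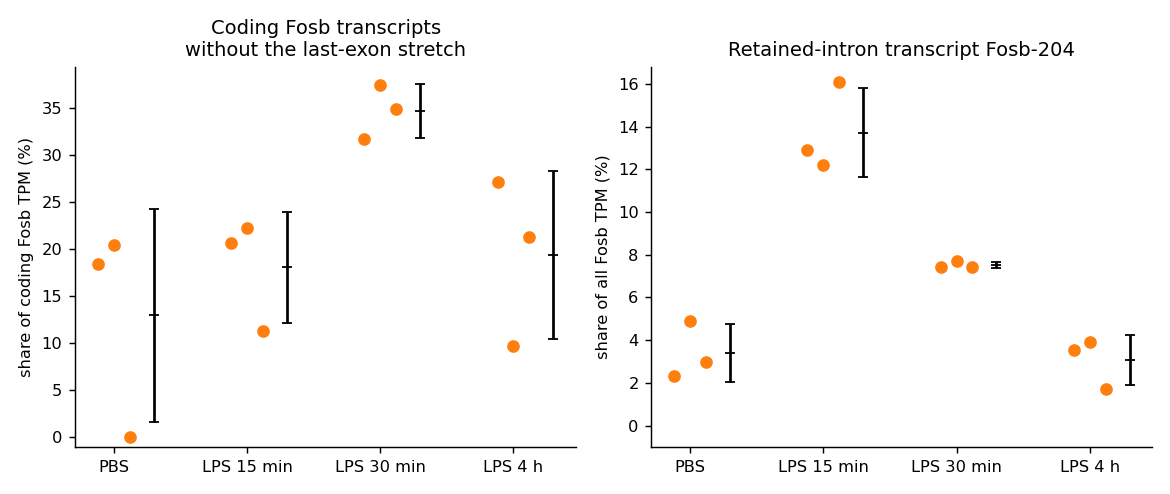
Share (%) of coding Fosb TPM in the transcripts without the 140-base stretch (left) and of all Fosb TPM in the retained-intron transcript Fosb-204 (right), 1 point per library with the group mean ± SD beside it. The left share is highest at 30 min and the right share at 15 min.

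The genes whose courses lay nearest to each member were found by the root mean square difference of log2(CPM + 1) over the 12 libraries, set to 0 at the PBS mean, among 12795 genes. For Fos they were Zfp36 (0.355), Ccn1 (0.367), and Egr1 (0.386), and for Junb Egr1 (0.297), Apold1 (0.317), and Zfp36 (0.348). Zfp36 encodes an mRNA-destabilizing protein, and Egr1 is an immediate early zinc finger factor. The neighbours of Fosb were the orphan receptor gene Nr4a1 (0.438), Ccn1 (0.452), and Egr3 (0.543). Those of Jun were Ier2 (0.294), the MAP kinase phosphatase gene Dusp1 (0.393), and Dnajb1 (0.519). Fosl2 ran close to Arid5a (0.122), the cell cycle inhibitor gene Cdkn1a (0.168), and Slc25a25 (0.195). Jund had the smallest differences, from Alas1 (0.0593), Stip1 (0.0962), and Herpud1 (0.111). It was also the member that changed least, and small changes leave less room for a difference by this measure. Fosl1 was nearest to Serpina3i (0.167), Litaf (0.198), and Marcksl1 (0.246), but at its low CPM the added 1 compresses fold changes, and that of Serpina3i at 4 h was 10.30 on the log2 scale against 7.65 for Fosl1.

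Other basic leucine zipper genes that can pair with Jun or Fos proteins were read from a list of 8. Atf3 passed at 15 min, Atf3, Atf4, and Jdp2 at 30 min, and Atf3, Atf4, Batf, Batf2, Batf3, and Jdp2 at 4 h, all higher, against 3.31, 3.78, and 19% of all genes tested called higher at these times. The list's median log2 fold change was 0.10, 0.30, and 2.22. Atf3, a stress-induced repressor or activator, held 4.01 ± 0.291 CPM in the PBS group, 50.9 ± 1.34 after 15 min of LPS, 420 ± 8.54 after 30 min, and 196 ± 2.20 after 4 h, the same order of groups as for Fos. Batf2, a gene induced by interferon, had 2.73 ± 0.291 CPM in PBS, 1.88 ± 0.560 at 15 min, 2.05 ± 0.478 at 30 min, and 75.0 ± 3.41 at 4 h (log2 4.78, edgeR p.adj = 4.01e-19). Atf2 and Atf7 were not called at any time, with log2 fold changes from -0.18 to 0.16. Of 4 Maf genes, which encode related zipper proteins, Maff was called at 15 min, Maff and Mafk at 30 min, and Maff, Mafg, and Mafk at 4 h, all higher (list medians 0.51, 0.74, and 1.94). These counts are to be read against the same 3.31, 3.78, and 19% of all genes tested. The proteins of Maff, Mafg, and Mafk are small Maf proteins, which lack an activation domain. Maff rose at each step, from 16.1 ± 0.266 CPM in PBS to 64.9 ± 1.92, 197 ± 6.68, and 430 ± 6.55. Maf, whose protein has an activation domain, was not called against PBS.

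**Figure D5:**
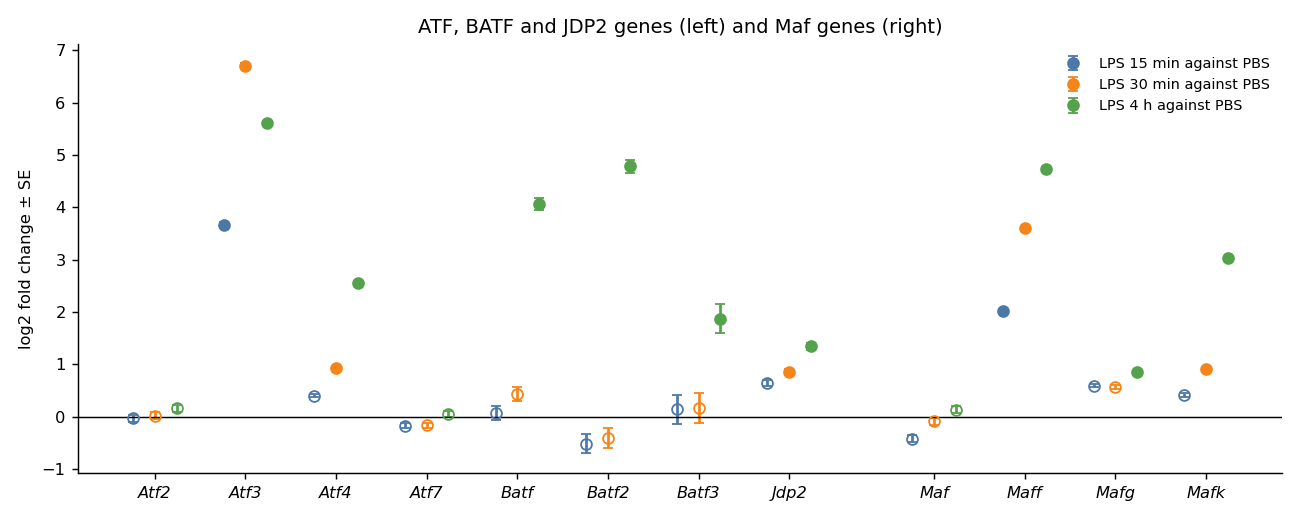
Log2 fold change (± SE) of each LPS time against PBS, for 8 ATF, BATF, and JDP2 genes and 4 Maf genes; filled points were called and open points were not. Atf3 and Maff are the genes called at 15 min, and the 3 Batf genes are called at 4 h alone.

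Of 9 genes for factors that bind the Fos promoter, none was called at 15 min by edgeR, DESeq2, or limma (1 had an unadjusted edgeR p below 0.05). At LPS 30 min 2 of 9 were called higher, against 3.78% of all genes tested. These were Srf, the serum response factor (log2 0.85), and Crem (0.95), of which limma called 1. At LPS 4 h Crem (2.24) and Elk4 (1.34) were higher and Elk3 (-1.52) and Mrtfb (-0.72) lower, 2 of 9 each way, against 19% higher and 13.8% lower among all genes tested. The list's median was within 0.15 of 0 at each time. Creb1 differed from PBS by -0.03, 0.07, and 0.09. Of 16 genes of the MAP kinase pathways, which act on AP-1 proteins by phosphorylation, Map3k8 (the kinase Tpl2, which acts downstream of the LPS receptor) was the 1 gene called at 15 min (1.06) and LPS 30 min (1.47). Of all genes tested, 3.31% and 3.78% were called higher at these times. At LPS 4 h 5 were higher, with Map3k8 at 4.03 and Map2k3 at 2.53, and 4 lower, with Map2k6 at -2.39 and Mapk3 at -1.997, counts to be read against the same 19% and 13.8%. The stress kinase genes Mapk8, Mapk9, and Mapk10 (JNK1, JNK2, and JNK3) were not called at any time. None of 4 ubiquitin ligase genes that act on Jun or Fos proteins (Fbxw7, Cop1, Itch, and Det1) was called by edgeR, DESeq2, or limma in the comparisons with PBS, and 0 had an unadjusted edgeR p below 0.05, with log2 fold changes from -0.36 to 0.41.

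Of 15 textbook AP-1 targets 14 passed the filter on low counts, all but Mmp10. At LPS 15 min Ccl2, Plaur, and Ptgs2 were higher, 3 of 14, against 3.31% of all genes tested. At LPS 30 min 5 of 14 were higher, against 3.78%, and at 4 h 11 of 14 were, against 19%, and none was lower at any time. The list's median log2 fold change was -0.21, 0.34, and 4.92. Ptgs2, which encodes cyclooxygenase-2, rose from 32.9 ± 0.584 CPM in PBS to 80.2 ± 0.243, 881 ± 23.8, and 5008 ± 6.79. Plaur, the urokinase receptor gene, rose from 7.24 ± 0.904 CPM to 32.1 ± 1.14, 149 ± 4.23, and 776 ± 2.44. Il6 was listed at 0 in every PBS and LPS 15 min library, at 0.524 ± 0.199 CPM at 30 min, and at 548 ± 13.8 CPM at 4 h. Vegfa differed from PBS by no more than 0.12 on the log2 scale and was not called. Each of these targets has other regulators, and no link to the AP-1 genes was tested.

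Genes that overlap a member can share its reads, since the kit does not mark strand. Junos, antisense to Jun, had 4 to 24 estimated fragments in any library, and Gm11175, antisense within Jund, 0 to 14. Prdx2 overlaps only the noncoding Junb-202, which had at most 3 fragments.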

How the data were processed

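Salmon 1.2.1, tximport, and DESeq2 on GRCm38.p6 are named by the paper and the submitters' processing notes. The deposited estimated counts are fragments that Salmon assigned to 140948 transcripts per library, not normalized. The deposited TPM values are scaled by the authors for transcript length. The deposited gene table holds a normalized signal (normalized counts): gene counts scaled by the authors with DESeq2 size factors and for average transcript length. Its columns were matched to samples through the sample number in the recorded names. Of the transcripts, 139852 were joined to genes by GENCODE M21 and summed, then rounded to whole numbers.

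Groups were taken from the sample records. The 19150 genes past filterByExpr (minimum count 10, total 15, share 0.7) entered 1 quasi-likelihood fit of 12 libraries in edgeR 4.0.16 (R 4.3.3) with TMM factors, and glmTreat tested each comparison against 1.5-fold (0.585 on the log2 scale), with Benjamini-Hochberg adjustment over all genes tested. The fit called 200 of 200 changed genes in simulated data. Genes near 0 in PBS were not among them, and each was changed far beyond 1.5-fold. The simulation thus does not bear on low counts, as in Fosl1, or on changes near 1.5-fold. Shares were tested by exact permutation of libraries over groups. Libraries with the same number did not deviate together (18 correlations, -0.0489 to 0.0679), so numbers were not taken as pairs. Reads per gene were checked against sampling noise by chi-square.

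The members, lists, and tests were chosen with earlier results of these data known. Named genes are the members, their 3 nearest neighbours (mean CPM of at least 5), the reference genes of the paper's PCR, and up to 6 genes per list and comparison with the largest or smallest change. Genes overlapping a member were picked from the annotation, and other listed genes named with a call were chosen after their values were seen. Results for 2 listed genes are not reported here. Alternatives were DESeq2 1.42.0, RLE factors, library size only, no filter, no fold threshold, a length offset, a fit on the groups compared, a replicate block, limma 3.58.1 on normalized counts, protein-coding transcripts only, estimated counts for shares, and leaving out each library. Promoter sequences come from RefSeq on GRCm38.p6. Python 3.11.15, pandas 2.3.3, numpy 2.4.6, and matplotlib 3.10.9 were used.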

Additional observations from a re-analysis of the deposited data

Results flagged for a closer look

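Members whose response to LPS differed between times, by the edgeR test of the difference itself, were singled out for a closer look. Between LPS 30 min and LPS 15 min the log2 difference was 1.92 for Fos, 3.07 for Fosb, 3.92 for Fosl1, 1.80 for Fosl2, 0.80 for Jun, and 1.62 for Junb. Between LPS 4 h and LPS 30 min it was -1.69 for Fos, -3.22 for Fosb, -1.71 for Jun, and -0.70 for Junb, and 3.69 for Fosl1 and 1.48 for Fosl2. Each time point is a separate set of mice, so these are differences between groups and not courses within an animal. Groups of 3 libraries were not searched for outlying samples.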

How the results depend on the processing

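Under the 10 other settings and without each of the 12 libraries, the members called numbered 5 or 6 at 15 min, 6 or 7 at 30 min, and 6 or 7 at 4 h against PBS, 5 to 7 from 15 to 30 min, and 6 or 7 from 30 min to 4 h. Of 769 refitted log2 fold changes 751 kept their direction and call. Fosl1 at 15 min turned negative with a length offset (-0.021), with limma (-0.10 and -0.044 with pseudocounts of 1 and 10), and without PBS replicate 2 (-0.56), LPS 15 min replicate 1 (-0.12), or LPS 15 min replicate 2 (-0.58), always at an adjusted p of 1; over the left-out libraries it ranged from -0.58 to 0.63. The other 12 that crossed the threshold were Fosl1 at 30 min against PBS or 15 min (6), Fosl2 at 15 min (2), and Jund (4), with the values given above. With a block for the library number no call on a member changed (6 of 7 at 15 min). Over all genes tested, calls at 15 min numbered 800 in edgeR, 385 in limma with a pseudocount of 10, and 7393 with no fold threshold, and with library size only higher calls at 4 h made up 18.2% of the calls in place of 58.0%.

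The Jun share of the summed TPM moved by more than 1 SD when weighted by estimated counts (85.7, 86.3, 76.0, and 62.5% in time order from PBS) or over protein-coding transcripts only (90.6, 82.7, and 81.9% in the LPS groups). Without 1 library it ranged from 93.8 to 94.2%, 89.8 to 89.9%, 82 to 82.3%, and 81.2 to 81.6%. The main transcript share at 15 min minus that at 30 min ranged from -6.87 to -4.84 percentage points for Fos, 7.05 to 8.95 for Fosb, 0.636 to 1.89 for Fosl2, and 0 to 0.033 for Junb without 1 library, and by estimated counts it was -1.77, 1.60, 0.317, and 0.00323. Depth limits Fosl1 in PBS and at 15 min and the Fosb forms outside LPS 30 min, and the cause of these shifts was not tested.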
